A study of Mus musculus with 30 samples.

Results

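The collagen genes Col1a2, Col3a1, Col4a4 and Col9a3 were followed across the pigmented and stalk regions of the early mouse eye. They were chosen by name, as a fibrillar pair (Col1a2 and Col3a1, known from the mesenchyme around the eye) and a pair known from basement membranes and ocular epithelium (Col4a4 and Col9a3), and are 4 of the 56484 genes listed in the count table. The libraries were made by Geo-seq, in which areas of a cryosection are cut out with a laser and their RNA is amplified and sequenced. All 30 libraries came from E12 control embryos, littermates that carry no Dct-Cre on a C57Bl6/J background, and no mutant library entered any comparison. They covered the presumptive retinal pigment epithelium (pRPE, 14 libraries) and the optic stalk (OS, 16 libraries). The pRPE regions were proximal (4) and distal (3) on the dorsal side and distal (4) and proximal (3) on the ventral side. In the OS they were dorsal distal (3), dorsal middle (2), dorsal proximal (2), ventral distal (3), ventral middle (4) and ventral proximal (2). Of the 30 libraries, 14 were in batch A and 16 in batch B. The study's methods speak of 4 control embryos, so that libraries of different regions share an embryo.

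Collagens are triple helices of 3 chains, wound in the endoplasmic reticulum and secreted. The fibrillar types form cable-like fibrils, to which Col1a2 gives the α2 chain of type I and Col3a1 the only chain of type III, the fibril of pliable connective tissue. Type IV chains instead form the sheet of the basement membrane, on which epithelia such as the retinal pigment epithelium rest. Col4a4 gives the α4 chain, which assembles with α3 and α5 chains into the network of mature kidney, inner ear and eye basement membranes. Col9a3 gives a chain of type IX, which sits on the surface of type II fibrils in cartilage and in the vitreous of the eye, and does not form fibrils alone.

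In GRCm38 coordinates with GENCODE M21 annotation, Col1a2 spans chr6:4504814-4541544 on the plus strand, Col3a1 chr1:45311538-45349706 on the plus strand, Col4a4 chr1:82448423-82586849 on the minus strand and Col9a3 chr2:180597790-180622189 on the plus strand. Col9a3 overlaps the end of Tcfl5, on the opposite strand, by 234 bases, and Tcfl5 was listed at 0 in every library. Col4a4 stands head to head with Col4a3 (chr1:82586921-82722059, plus strand), which encodes the α3 chain of the same network. The annotated starts of these genes lie 71 bases apart. That interval is shown because it lies upstream of both genes, whose libraries are compared below. It is chr1:82586850-82586920 of GRCm38.p6. Its label names the genes in order of coordinate, whereas the bases, printed on the strand of Col4a4, run from the Col4a3 start to the Col4a4 start:
Col4a4 to Col4a3: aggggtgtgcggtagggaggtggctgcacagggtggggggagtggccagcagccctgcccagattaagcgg
The interval is 69.01% G and C. On either strand it held no CCAAT, which 13.9% of windows of this length in 27025 RefSeq promoters (GRCm38) held, no TATAAA (4.72% of windows) and no GGGCGG (21.2% of windows).

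Depth and coverage were uneven. Total counts per library ranged from 1421918 to 6041021 (median 2602532), and between 1730 and 9886 genes had a count (median 4299). Levels below are CPM, counts scaled to a common library total with edgeR's TMM factors, and on this scale 3 counts correspond to 0.650 to 2.20 CPM. A value of 0 is a row listed at 0 and no evidence of absence, since 27 of 83 ribosomal protein genes, which every cell uses, were listed at 0 in all 30 libraries. Summed CPM of 10 optic stalk markers was 28.0 to 3276 in the OS (median 784) and 0 to 214 in the pRPE (median 62.2), and that of 14 pigment epithelium markers was 228 to 2648 in the pRPE (median 1045) and 0 to 2424 in the OS (median 287). Both lists thus followed the labelled tissue by their medians, with ranges that overlapped. They were chosen with earlier results of these data known, so that this is no independent check of the labels. In the fit described below, 6 of 8 tested pigment markers were higher in the pRPE. Trpm1 (log2 fold change -0.45) and Otx2 (-1.22) went the other way. Of the pigment list, Tyr, Tyrp1, Dct, Rab38 and Mlph were listed at 0 throughout. Fewer cells of a type and less RNA per cell cannot be told apart in such libraries.

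Counts of all members were found in both tissues. Col1a2 had a count in 22 of 30 libraries and in all 10 regions, Col3a1 in 21 libraries and all 10 regions, Col9a3 in 19 libraries and 9 regions, and Col4a4 in 11 libraries and 7 regions. For each gene, regions that followed each other in order of mean level overlapped in their ranges at all 9 steps. Neighbours in such an order lie close by construction, and many of these small regions hold a library at 0. The overlap was therefore nearly fixed in advance and is not read as a trait of these genes. Regions farther apart in that order could be separate, such as OS dorsal proximal (44.1 to 70.05 CPM, n = 2) and OS dorsal middle (6.24 to 6.85 CPM, n = 2) for Col3a1, and OS ventral middle (35.9 to 816 CPM, n = 4) and OS ventral distal (0 to 19.5 CPM, n = 3) for Col1a2, pairs picked after their values were seen and not tested.

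**Figure D1:**
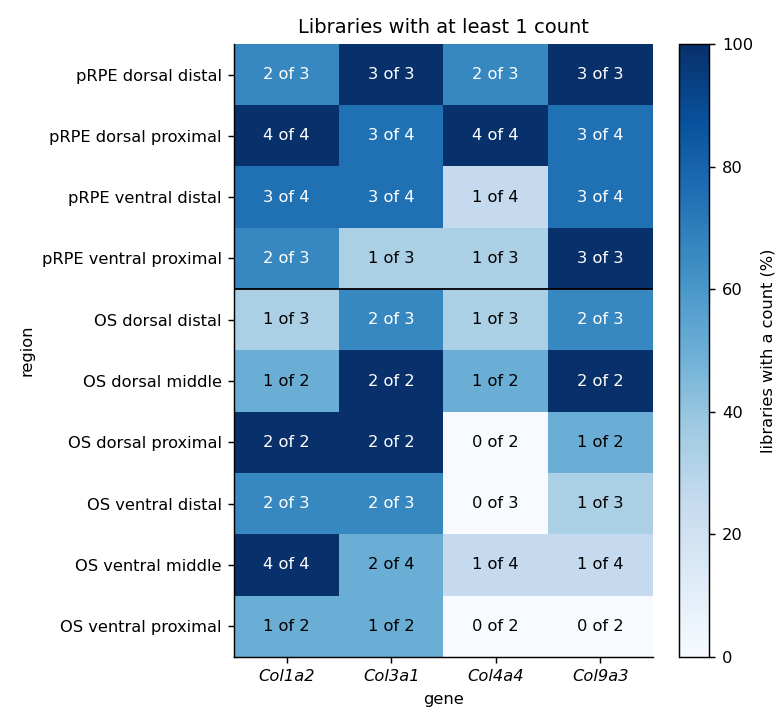
Number of libraries with at least 1 count for each collagen gene (columns) in each of the 10 regions (rows), with the share of libraries in percent as shade. Col4a4 was counted in 4 of 4 pRPE dorsal proximal libraries and in none of the OS dorsal proximal, OS ventral distal and OS ventral proximal libraries, whereas Col1a2 and Col3a1 were counted in every region.

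Col1a2 had the widest range among libraries with a count. In the dorsal pRPE, the distal libraries held 0, 35.4 and 665 CPM and the proximal libraries 1.33, 79.2, 254 and 1093 CPM. In the ventral pRPE, the distal libraries held 0, 6.02, 109 and 166.5 CPM and the proximal libraries 0, 39.1 and 449 CPM. Libraries of one region therefore differed by up to the full range of the gene. In the dorsal OS, the distal libraries held 0, 0 and 180.0 CPM, the middle libraries 0 and 97.5 CPM and the proximal libraries 1.44 and 2.905 CPM. In the ventral OS, the distal libraries held 0, 7.71 and 19.5 CPM, the middle libraries 35.9, 93.3, 322 and 816 CPM and the proximal libraries 0 and 406 CPM. The highest region mean was that of the pRPE dorsal proximal region (357 ± 502 CPM, SD, n = 4), and the lowest that of the OS dorsal proximal region (2.17 ± 1.04 CPM, SD, n = 2). A single pRPE dorsal proximal library, number 62, held 31.4% of all Col1a2 counts, 4006 of 12749. Among libraries with a count, the highest level was 819 times the lowest. Mean levels were 207 ± 322 CPM in the pRPE (SD, n = 14) and 124 ± 222 CPM in the OS (SD, n = 16).

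Col3a1 was counted in 1 library fewer than Col1a2 and often at few counts, with 7 of its 21 libraries holding 1 to 10. In the dorsal OS, the distal libraries held 0, 16.04 and 95.5 CPM, the middle libraries 6.24 and 6.85 CPM and the proximal libraries 44.1 and 70.05 CPM. In the ventral OS, the distal libraries held 0, 0.298 and 31.9 CPM, the middle libraries 0, 0, 3.66 and 4.77 CPM and the proximal libraries 0 and 40.5 CPM. Its highest levels thus lay in the stalk, but so did 5 of the 9 libraries listed at 0. In the dorsal pRPE, the distal libraries held 1.045, 4.08 and 6.64 CPM and the proximal libraries 0, 0.378, 4.00 and 18.8 CPM. In the ventral pRPE, the distal libraries held 0, 2.30, 15.75 and 20.7 CPM and the proximal libraries 0, 0 and 16.4 CPM. The region with the highest mean was the OS dorsal proximal region (57.1 ± 18.3 CPM, SD, n = 2), which was the lowest region for Col1a2. By tissue, the mean was 6.44 ± 7.86 CPM in the pRPE (SD, n = 14) and 20.0 ± 29.0 CPM in the OS (SD, n = 16). The ranges of the tissues overlapped.

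Col4a4 was found mostly in the dorsal pRPE. The dorsal distal pRPE libraries held 0, 9.05 and 17.25 CPM, and the dorsal proximal pRPE libraries 5.55, 62.2, 117 and 127 CPM. In the ventral pRPE, 1 of 4 distal libraries (32.9 CPM) and 1 of 3 proximal libraries (23.9 CPM) held a count. In the OS, the counts lay in 1 of 3 dorsal distal libraries (93.0 CPM), 1 of 2 dorsal middle libraries (60.03 CPM) and 1 of 4 ventral middle libraries (1.01 CPM, 3 counts). Counts were thus present in 6 of 7 dorsal pRPE, 2 of 7 ventral pRPE, 2 of 7 dorsal OS and 1 of 9 ventral OS libraries. The mean was 35.1 ± 47.4 CPM in dorsal libraries (SD, n = 14) and 3.61 ± 9.81 CPM in ventral libraries (SD, n = 16), a ratio of 9.73. The ranges overlapped, since 6 of the 14 dorsal libraries were listed at 0 and 3 of the 16 ventral ones held counts.

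Col9a3 was either at a nearly even level or listed at 0. In the dorsal pRPE, the distal libraries held 301, 314.5 and 432 CPM and the proximal libraries 0, 223, 362 and 429 CPM. In the ventral pRPE, the distal libraries held 0, 256, 270.0 and 355 CPM and the proximal libraries 195, 312 and 382 CPM. Only 2 of 14 pRPE libraries were therefore at 0, number 32 of the dorsal proximal and number 6 of the ventral distal region. In the dorsal OS, the distal libraries held 0, 193 and 267 CPM, the middle libraries 227 and 319.9 CPM and the proximal libraries 0 and 273 CPM. In the ventral OS, 1 of 3 distal libraries (186 CPM) and 1 of 4 middle libraries (194 CPM) held counts, and neither of the 2 proximal ones did. Mean levels were 274 ± 135 CPM in the pRPE (SD, n = 14) and 104 ± 126 CPM in the OS (SD, n = 16).

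The 19 libraries with Col9a3 counts lay between 186 and 432 CPM, a 2.33-fold range with a coefficient of variation of 26.9%, and none held fewer than 265 counts. The corresponding coefficients of variation were 134% for Col1a2, 127.5% for Col3a1 and 91.1% for Col4a4. Of 2057 genes with a count in at least 15 libraries and none in at least 5, the lowest count above 0 had a median of 5. It reached 265 in 4 of them (0.194%), namely Col9a3, Zfp655, Nmt2 and Txnrd2, and Col9a3 alone had a range as narrow as 2.33-fold. Within the 19 libraries the log2 count rose with the log2 total count (Pearson r = 0.73, Spearman rho = 0.76), which describes libraries that differ in depth. The total counts of the 11 libraries at 0 (1852373 to 3184553) lay within the range of the 19 with counts.

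**Figure D2:**
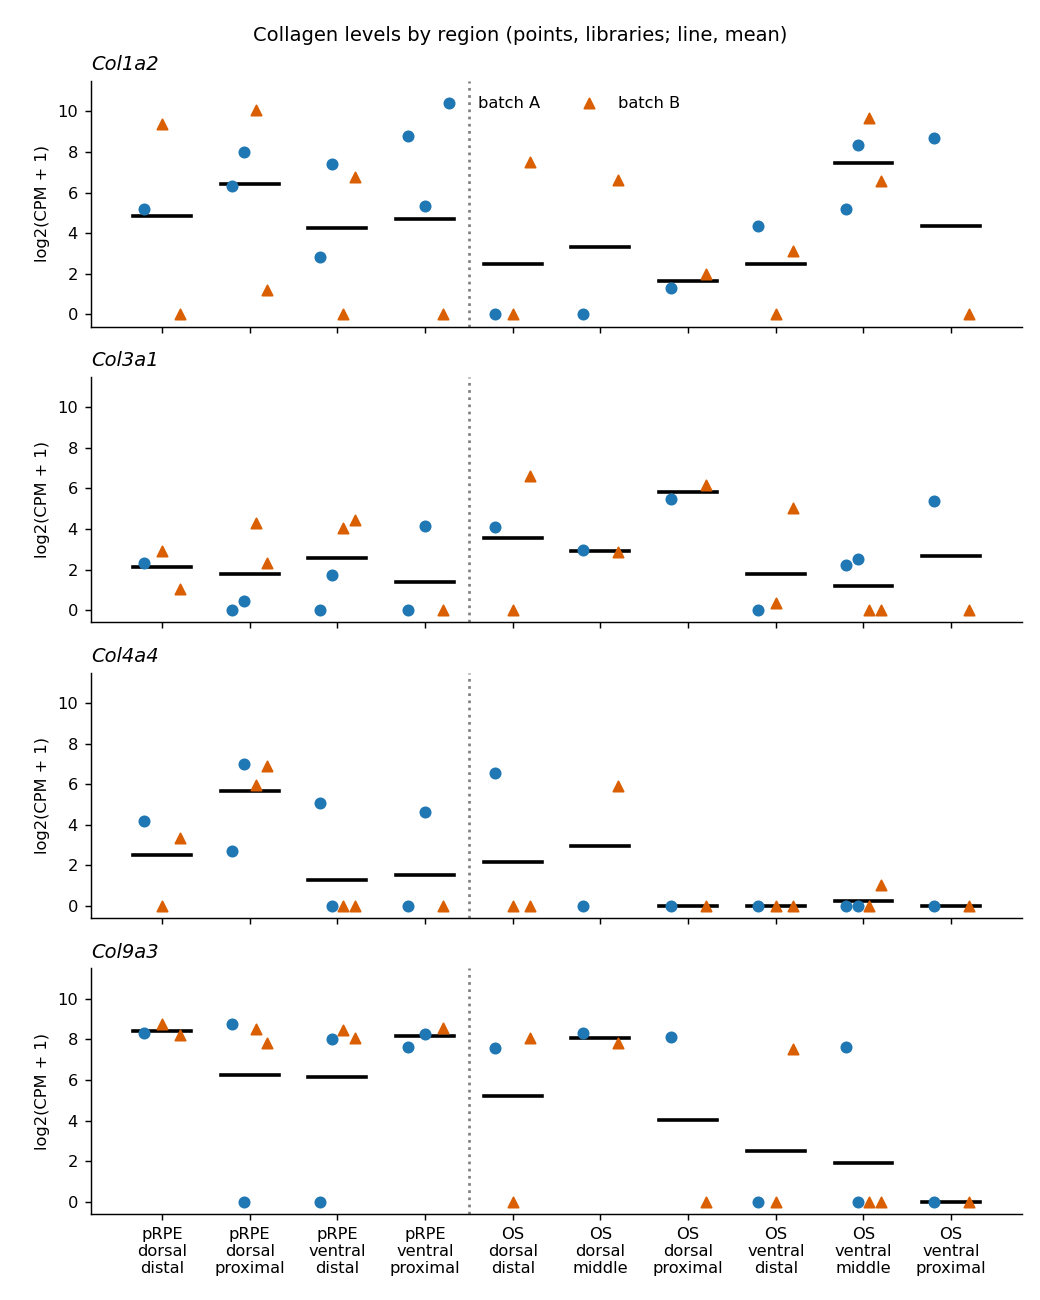
Level of each collagen gene as log2(CPM + 1) in every library, by region. Circles are batch A, triangles batch B and black lines the mean of the region. Col9a3 lies in a narrow band from 186 to 432 CPM or at 0, whereas Col1a2 is spread from 1.33 to 1093 CPM.

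Differences between tissues, positions and batches were tested in 1 fit over all 30 libraries (edgeR's quasi-likelihood test with tissue, dorsal-ventral position, proximal-distal position and batch as terms). Adjustment was by Benjamini-Hochberg over 8337 genes, and calls required an adjusted p under 0.05 with a log2 fold change over 0.58 in size. Between pRPE and OS none of the collagen genes was called, where 0.036% of all genes were. The fitted log2 fold changes, pRPE over OS, were 1.66 ± 1.53 for Col1a2 (SE, adjusted p = 0.656), -2.09 ± 1.52 for Col3a1 (adjusted p = 0.514), 4.66 ± 1.80 for Col4a4 (adjusted p = 0.116) and 2.12 ± 1.59 for Col9a3 (adjusted p = 0.536). The members of the fibrillar pair thus had opposite signs, each with an adjusted p far above the threshold. Across all genes the median was 0.80, and pRPE libraries held more detected genes (median 5347.5) than OS libraries (median 4146.5). The value of Col4a4 was unsteady. Its log2 ratio of plain means was 1.55, the fitted value was 0.54 with the number of genes detected as a term (adjusted p = 0.923), and it ran from 2.18 (without pRPE ventral distal library 6) to 8.05 (without OS dorsal distal library 33) when single libraries were left out, never called. DESeq2 called it (6.79, adjusted p = 0.0111), as it did 1247 genes in all. Col4a4 had more than 10 counts in 8 pRPE and 2 OS libraries. It thus met the filter's minimum of 3 libraries through the pRPE, where it is high, and neither fit is independent of the filter.

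Between dorsal and ventral libraries Col4a4 was called as higher dorsally, with a fitted log2 fold change of 5.90 ± 1.601 (SE, adjusted p = 0.0323). This was 1 of 4 members, where 5.76% of all genes were called, 5.53% higher dorsally and 0.228% lower. Col4a4 had more than 10 counts in 8 dorsal and 2 ventral libraries, so that it met the filter's minimum of 3 libraries through the dorsal ones, where it is high, and its call is not independent of the filter. The fitted value exceeds the log2 ratio of the plain means, 3.28, and the size is correspondingly uncertain. The other members gave -0.23 ± 1.92 (Col1a2, adjusted p = 0.986), 0.37 ± 1.399 (Col3a1, adjusted p = 0.958) and 1.32 ± 1.28 (Col9a3, adjusted p = 0.678), and were not called. The small value of Col1a2 joins opposite values in the batches, -3.91 within batch A (adjusted p = 0.974) and 4.57 within batch B (adjusted p = 0.185). The median over all genes was 0.94.

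The number of detected genes moved with the Col4a4 difference. Dorsal libraries had 2693 to 9886 detected genes (median 5172.5) and ventral ones 1730 to 5566 (median 4299). Libraries with Col4a4 had 3427 to 9886 (median 6187, n = 11) and those without 1730 to 6769 (median 3706, n = 19). Over the 30 libraries the log2(CPM + 1) level of Col4a4 and the log2 number of detected genes had a Pearson r of 0.62, which was 0.42 within batch A and 0.81 within batch B. It was 0.19 for Col1a2, 0.06 for Col3a1 and 0.43 for Col9a3. With detected genes as a further term, the log2 fold change of Col4a4 fell to 1.90 and the call was lost (adjusted p = 0.692). The call was also lost without the batch term (5.26, adjusted p = 0.0592), within batch A (3.53, adjusted p = 0.988) and within batch B (5.75, adjusted p = 0.159), and with the library number block in place of batch (5.79, adjusted p = 0.0651). Without the OS dorsal distal library number 33, which held 429 of the 1609 Col4a4 counts, it was 2.93 (adjusted p = 0.400).

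**Figure D3:**
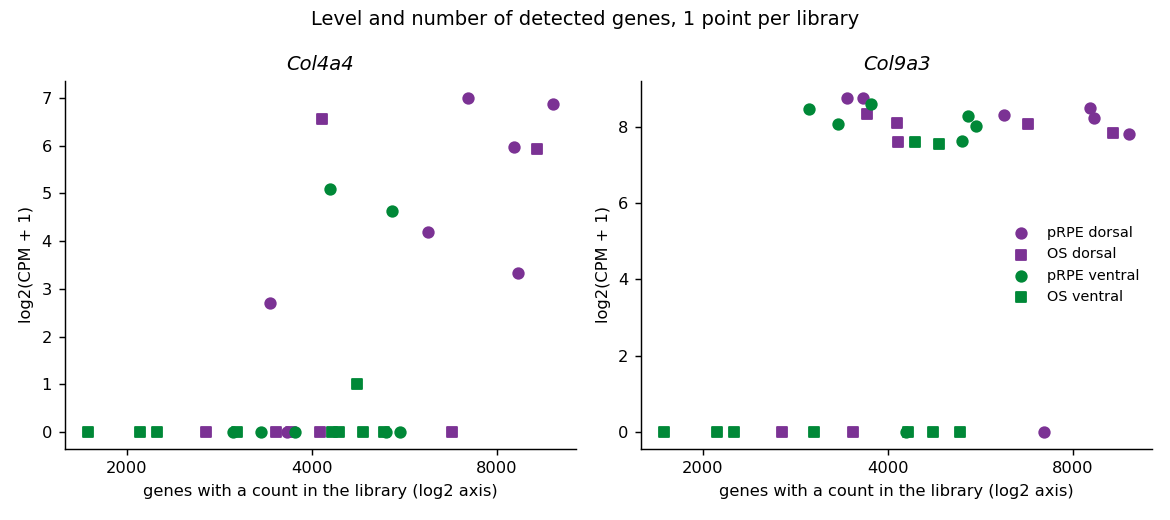
Level of Col4a4 and Col9a3 as log2(CPM + 1) against the number of genes with a count in the library (log2 axis), 1 point per library, purple for dorsal and green for ventral, circles for pRPE and squares for OS. Col4a4 counts lie in libraries with 3427 or more detected genes and all libraries above 6769 detected genes hold them, whereas Col9a3 keeps its band from 186 to 432 CPM across libraries that differ in detected genes.

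Summed levels of cell type markers also differed with position, and their part in the result was not tested. Summed CPM of the 14 pigment epithelium markers was 118 to 2648 in dorsal libraries (median 863) and 0 to 2271 in ventral ones (median 324). That of 10 endothelial markers, of which 5 had a count in any library, was 0 to 308 dorsally (median 48.6) and 0 to 614 ventrally (median 27.9), with Kdr, Tie1, Emcn, Cldn5 and Plvap at 0 throughout. For 11 lens and surface ectoderm markers, 6 of them with a count, it was 0 to 87.2 dorsally (median 8.54) and 0 to 76.7 ventrally (median 0), with Cryaa, Cryga, Foxe3, Krt5 and Epcam at 0. For 10 blood markers, 4 of them with a count, the medians were 8.08 CPM dorsally and 0 ventrally, and those of the cartilage list were 0 on both sides. Medians were higher ventrally for 3 lists. They were 3.95 CPM dorsally and 4.22 CPM ventrally for 11 retinal progenitor markers. For the optic stalk markers they were 177 and 455 CPM, and for the periocular mesenchyme markers 1206 and 1592 CPM. The mesenchyme sum was mostly Vim, a gene of many cell types. In libraries with Col1a2 its median was 1260 CPM with Vim and 114 CPM without it, and in the others 1514 and 136 CPM. Sums without Vim were not formed by position.

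Along the other axes no member was called. From distal to proximal, where edgeR called no gene of the 8337 (0%) while 900 had an unadjusted p under 0.05 and DESeq2 called 612, the log2 fold changes, distal over proximal, were -1.60 ± 1.58 for Col1a2, -0.30 ± 1.604 for Col3a1, 0.19 ± 2.02 for Col4a4 and 0.58 ± 1.56 for Col9a3. The sign for Col4a4 goes against its plain means, 11.7 CPM in distal and 30.5 CPM in proximal libraries (log2 ratio -1.38). Between batches, where 0.12% of genes were called, they were 0.92 ± 1.86, 0.63 ± 1.598, -3.54 ± 1.59 and -0.26 ± 1.37 in the same order, batch B over batch A. The value of Col4a4 had an unadjusted p of 0.0327 and an adjusted p of 0.329, and DESeq2 called it (log2 fold change -5.89, adjusted p = 0.0229). Its plain means were 15.6 CPM in batch B and 21.4 CPM in batch A, a log2 ratio of -0.46, and without OS dorsal distal library 33 the fitted value was -0.55 (adjusted p = 1). The errors of these fits span several-fold changes, so that differences of that size cannot be told from 0 with these libraries.

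**Figure D4:**
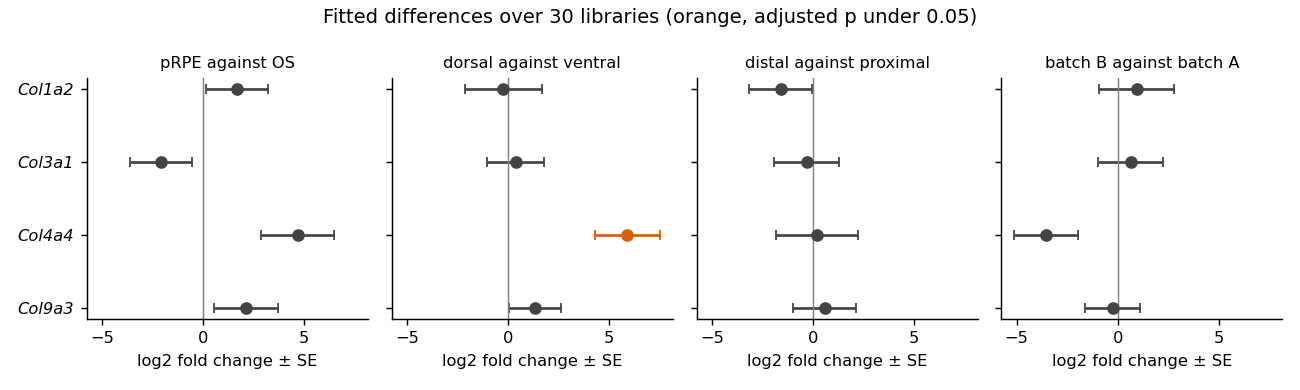
Fitted log2 fold change of each collagen gene with its standard error (bars) in the comparisons of tissue, dorsal-ventral position, proximal-distal position and batch, from the fit over 30 libraries. Only Col4a4 between dorsal and ventral libraries, at 5.90 ± 1.601, has an adjusted p under 0.05 (orange).

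The share of libraries with a count was compared as a further measure, which also depends on the level and on how many genes a library covers. Between pRPE and OS, Col9a3 was counted in 12 of 14 against 7 of 16 libraries (two-sided Fisher's exact test, p = 0.0259, adjusted p = 0.406) and Col4a4 in 8 of 14 against 3 of 16 (p = 0.0567, adjusted p = 0.477). Neither passed, where 0% of the 8337 genes did and 905 had an unadjusted p under 0.05. The fibrillar genes were almost evenly spread, Col1a2 in 11 of 14 against 11 of 16 and Col3a1 in 10 of 14 against 11 of 16. Between dorsal and ventral libraries, Col4a4 was counted in 8 of 14 against 3 of 16 (Fisher's exact test, p = 0.0567, adjusted p = 0.489), Col3a1 in 12 of 14 against 9 of 16, Col9a3 in 11 of 14 against 8 of 16 and Col1a2 in 10 of 14 against 12 of 16. Here too 0% of genes passed, with 875 at an unadjusted p under 0.05. From distal (13 libraries) to proximal (11 libraries) the counts were 8 and 9 for Col1a2, 10 and 7 for Col3a1, 4 and 5 for Col4a4, and 9 and 7 for Col9a3. In batch B (16 libraries) and batch A (14 libraries) they were 10 and 12, 11 and 10, 5 and 6, and 10 and 9 in the same order. In these last comparisons 0% of genes passed, with 125 and 148 at an unadjusted p under 0.05.

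Whether the fibrillar and the epithelial pair follow different libraries was asked of all 6 pairs of members, as correlations of log2(CPM + 1) over the 30 libraries, which share embryos, batches and differences in depth. Col1a2 and Col3a1 had a Pearson r of 0.07 (Spearman rho 0.12), and Col4a4 and Col9a3 an r of 0.17 (rho 0.10). The highest value was between the pairs, 0.36 for Col3a1 and Col9a3 (rho 0.26). The other values between the pairs were 0.03 for Col1a2 and Col4a4, -0.01 for Col1a2 and Col9a3 and -0.04 for Col3a1 and Col4a4. Col3a1 and Col9a3 were thus each other's closest members, across the pairs, while Col1a2 and Col4a4 were closest to their own partners, at 0.07 and 0.17. The libraries of the fibrillar and the epithelial genes were not set apart by these values. Without the 2 libraries farthest from the median of the first gene, the values were 0.13 for the fibrillar pair, 0.26 for the epithelial pair and 0.47 for Col3a1 with Col9a3. With detected genes and batch removed they were 0.07, -0.16 and 0.37.

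The values of both pairs changed sign between batches. Col1a2 and Col3a1 had an r of -0.30 within batch A but 0.30 within batch B, and that of Col4a4 and Col9a3 -0.07 and 0.38. For Col3a1 and Col9a3 it was 0.21 and 0.46. Col9a3 was counted in 16 of the 21 libraries with Col3a1 and in 3 of the 9 without it. Col3a1 was counted in 16 of the 22 libraries with Col1a2 and in 5 of the 8 without it, and Col9a3 in 8 of the 11 libraries with Col4a4 and in 11 of the 19 without it. Among the 6951 other genes with a count in at least 5 libraries, Col9a3 ranked 200th in likeness to Col3a1 and Col3a1 1165th in likeness to Col9a3, whereas Col3a1 ranked 3283rd for Col1a2 and Col9a3 4395th for Col4a4.

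Markers of the periocular mesenchyme, the tissue for which the fibrillar genes are known, did not set apart their libraries. Of 22 markers, 12 had a count in any library and 6 passed the filter, and Foxc1, Foxd3, Twist1, Prrx1, Prrx2, Lum, Dcn, Tfap2b and Dpt were listed at 0 throughout. Their summed CPM was 379 to 1734 in the pRPE (median 989) and 407 to 3292 in the OS (median 2182). As these sums are mostly Vim, they are not read as mesenchyme content of the tissues. Without Vim, an intermediate filament gene of many cell types, the sum was 54.8 to 605 CPM in libraries with Col1a2 (median 114) and 101 to 316 CPM in those without (median 136). For Col3a1 the medians were 121 with and 142 without. The name of a mesenchymal pair therefore rests on what is known of these genes, not on the libraries. For Col9a3, the sum of the pigment epithelium list was 42.5 to 2648 CPM in libraries with it (median 742) and 0 to 2483 in those without (median 400). For Col4a4 it was 136 to 2648 CPM (median 848) and 0 to 2424 (median 486).

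The genes whose levels were most like those of a member, by Pearson r over 30 libraries, differed for each. For Col4a4 they were Kcnj3, a potassium channel gene (0.85), Sema5b, a semaphorin (0.84), Rfx1 (0.82), Uap1 (0.82) and Nom1 (0.82). For Col9a3 they included Emilin1, a glycoprotein of elastic fibres (0.75), Mt4 (0.75), Elp4 (0.74) and Strn3 (0.72). The fibrillar genes had weaker likeness, with Tex9 (0.56), Tspan12 (0.56), Dag1, the dystroglycan gene (0.56), Tceanc2 (0.55) and Flnc (0.55) for Col1a2, and Elob (0.64), Cfap74 (0.60), Gm28845 (0.55), 5430427G11Rik (0.53) and Clhc1 (0.53) for Col3a1. None of the other members or collagens was among these. Of all genes compared, 87.99% had an r above 0 with Col4a4 and 81.6% with Col9a3, against 64.01% for Col1a2 and 57.3% for Col3a1.

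The type IV genes stand as head-to-head pairs in the genome, and the chains of the α3, α4 and α5 network were followed with Col4a4. Col4a3 was counted in 7 of 30 libraries, all of them dorsal, with 131 counts in pRPE dorsal proximal library 2, 39 in library 32, 30 in OS dorsal distal library 63, 17 in library 62, 12 in library 81, 4 in library 82 and 1 in library 84. Its level was 7.42 ± 17.6 CPM in dorsal libraries (SD, n = 14) and it was listed at 0 in all 16 ventral ones. With 3 counts put in for each ventral library, the ratio of the means was 6.03. This is no lower bound, since a row listed at 0 is no evidence of absence. The dorsal median was 0.240 CPM. The gene was called (edgeR, adjusted p = 0.0323). Without library 2, a setting chosen after the data were seen, the dorsal mean was 2.90 CPM and that ratio 2.36. Since Col4a3 passed the filter through dorsal libraries alone, its direction was fixed by the filter. Of its 7 libraries, 6 also held Col4a4, which leaves 5 of the 11 Col4a4 libraries without Col4a3. The correlation of their levels was 0.38 (rho 0.57), and 0.31 with detected genes and batch removed. Col4a5, the X-linked chain of the same network, was counted in 16 libraries, 12 of 14 in the pRPE and 4 of 16 in the OS (log2 fold change 5.16, adjusted p = 0.310). Its plain means were 59.9 ± 46.9 CPM in the pRPE (SD, n = 14) and 30.3 ± 57.6 CPM in the OS (SD, n = 16), a smaller difference than the fitted one. Its log2 fold change between dorsal and ventral libraries was 0.30 (adjusted p = 0.969).

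**Figure D5:**
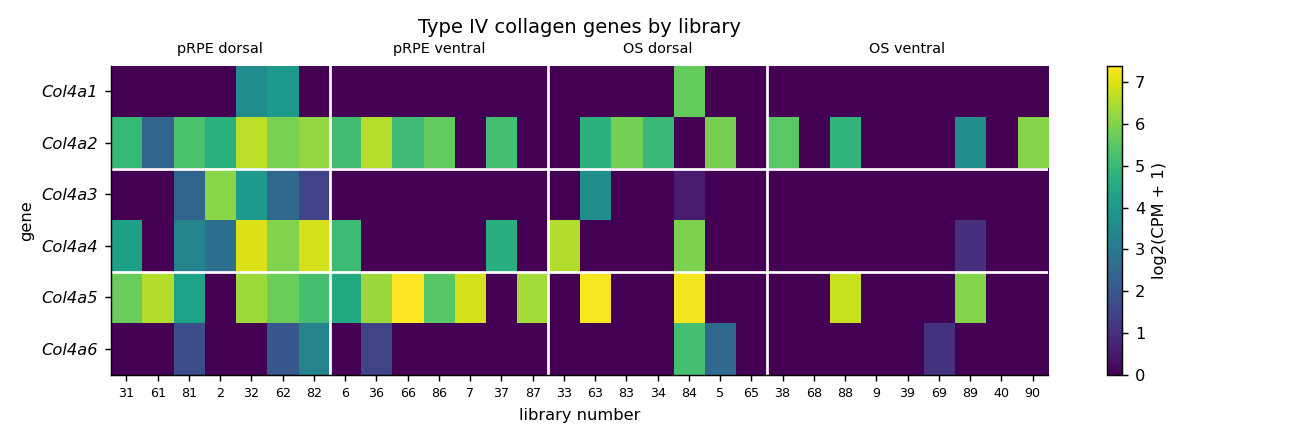
Level of the type IV collagen genes (rows) as log2(CPM + 1) in the 30 libraries (columns, by library number), ordered by tissue and dorsal-ventral position. White lines separate the genomic pairs and the groups. Col4a3 counts lie in 7 dorsal libraries, of which 6 also hold Col4a4.

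Col4a1 and Col4a2, the chains of every basement membrane, were counted in 3 and 20 libraries, 2 of them shared. Col4a5 and Col4a6 shared 5 libraries, of 16 and 7. Col4a2 was thus in 2 of 3 Col4a1 libraries, where it was in 20 of all 30. Col4a5 was in 5 of 7 Col4a6 libraries, where it was in 16 of all 30. The Pearson r was 0.01 for Col4a1 and Col4a2 and 0.23 for Col4a5 and Col4a6. With detected genes and batch removed it was -0.19 and -0.09. No relation is read from these shared libraries, and a difference between the pairs was not tested. Of the 7 network-forming genes that passed the filter (Col4a1 to Col4a6 and Col8a2), Col4a3 and Col4a4 were called between dorsal and ventral libraries. Both met the filter through the dorsal libraries, as did Col4a1 and Col4a6, so neither the direction nor the count of calls of the list is read against the 5.76% of all genes called. Col4a2 (log2 fold change 0.67, adjusted p = 0.892) and Col8a2 (2.16, adjusted p = 0.549) were counted in both.

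Among the 40 other collagen genes, 38 had a count in some library and 23 passed the filter. Between dorsal and ventral libraries 2 of the 23 were called, both higher dorsally, as were 5.53% of all genes, namely Col4a3 and Col15a1, a basement membrane collagen (log2 fold change 4.96, adjusted p = 0.0491). The plain means of Col15a1 were 11.7 CPM dorsally and 2.93 CPM ventrally, a log2 ratio of 2.00. The direction of this list is not read either, since it holds Col4a1, Col4a3, Col4a6 and Col5a3, which passed the filter through dorsal libraries alone. Between pRPE and OS none of them was called, with a median of 0.84 against 0.80. Between batches 1 was called, Col19a1, which was counted in all 30 libraries with up to 85477 counts (log2 fold change -0.90 in batch B, adjusted p = 0.00872). From distal to proximal none was called.

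Partner chains of Col1a2 and Col9a3 were counted in few libraries. Col1a1, whose α1 chain makes up type I collagen together with the product of Col1a2, had 16 and 6 counts in 2 libraries and did not pass the filter. Col9a1 and Col9a2, which complete type IX collagen with Col9a3, were counted in 4 and 2 libraries. The Col9a1 libraries were 1 of 14 in the pRPE (mean 0.331 CPM) and 3 of 16 in the OS (mean 8.76 CPM), and the fitted log2 fold change of 1.65 (adjusted p = 0.345) runs against these means. Col2a1, the chain of the type II fibril that carries type IX, had counts in 2 libraries and at most 12. Of 7 cartilage markers 4 had a count in any library, their sum reached at most 24.0 CPM, and Acan, Matn4 and Sox9 were listed at 0. Col5a2, the neighbour of Col3a1 at a distance of 24614 bases, was counted in 5 libraries (log2 fold change -2.09 between dorsal and ventral, adjusted p = 0.806).

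The remaining fibrillar genes that passed the filter were Col5a3, Col11a2, Col24a1 and Col27a1. Col5a3 was counted in 4 libraries, all dorsal, through which alone it passed the filter (log2 fold change 3.76, adjusted p = 0.0848), and Col27a1 in 22, 10 dorsal and 12 ventral (0.78, adjusted p = 0.846). The fibril-associated genes Col20a1 and Col22a1 had log2 fold changes of 0.19 and 0.66 between dorsal and ventral libraries. Of the other classes, Col6a1, Col6a2, Col7a1, Col8a2, Col13a1, Col17a1, Col25a1 and Col26a1 passed the filter without a call in any comparison. Col13a1, a transmembrane collagen, was counted in 29 libraries and Col7a1, the anchoring fibril chain of epithelia, in 27.

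None of the tested genes that make, anchor and sense collagen was called, of 10, 8 and 2 tested. Over all genes 0.036% were called between tissues and 5.76% between dorsal and ventral libraries, so that nothing particular to these lists is read from this. Of 30 genes of collagen biosynthesis, 20 had a count and 10 passed the filter, with median log2 fold changes of 1.04 between pRPE and OS (0.80 over all genes) and 0.32 between dorsal and ventral libraries (0.94 over all genes). Plod1, a lysyl hydroxylase that prepares cross-links, was counted in 8 of 14 pRPE and 2 of 16 OS libraries (log2 fold change 6.16, adjusted p = 0.118). Serpinh1, the collagen chaperone, Lox, the cross-linking oxidase, and Sparc were listed at 0 throughout. Of 18 other basement membrane genes, 15 had a count and 8 passed the filter. Of these 8, 5 had a value above 0 between pRPE and OS. Nid2, a linker of laminin and type IV networks, was counted in 7 of 14 pRPE and 2 of 16 OS libraries (log2 fold change 7.83, adjusted p = 0.0719). Like Plod1, it could not meet the filter without the pRPE. Frem2 went the other way (-6.10, adjusted p = 0.562). Of 7 collagen receptors, 4 had a count, and Itga1 and Itga10 passed the filter. Itga10, an integrin chain that binds collagen, was counted in 19 libraries (log2 fold change 1.33 between pRPE and OS, adjusted p = 0.825), and Itgb1, its partner, was listed at 0. Itga1 went the other way (-3.73, adjusted p = 0.539).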

How the data were processed

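The 30 control Geo-seq libraries of E12 entered the analysis. The authors used HISAT2 (GRCm38) and StringTie, and the estimated counts they deposited are not normalized. The counter, annotation and tool versions are not given in the sources used here, and the kit does not mark strand. Of the values, 270 in 63 genes were not whole and were rounded. Genes with more than 10 counts in at least 3 libraries (8337) were tested with edgeR 4.0.16 (R 4.3.3), with TMM and tissue, both positions and batch as terms. Libraries with a count were compared by two-sided Fisher's exact tests (scipy 1.17.1). Both were adjusted by Benjamini-Hochberg over all 8337 genes. Likeness used log2(TMM CPM + 1) with python 3.11.15. The p-values measure the spread between libraries, some of which share an embryo. The edgeR step was also run on simulated counts, which did not model the differences in detected genes between libraries. No result here rests on that run. Alternatives included DESeq2 1.42.0, other filters, scalings and covariates, batches apart and single libraries left out. The members, gene lists and the rule for named genes (the members, the 5 genes most like each in at least 5 libraries, and each collagen past the filter) were chosen with earlier results of these data known. A few genes under that rule or in the lists are not reported here.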

Additional observations from a re-analysis of the deposited data

Results flagged for a closer look

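In 12 groups of 4 libraries, made of 3 regions and the 4 members, the highest or lowest library lay far from the others in 5. Chance marks about 1 in 20 groups of continuous values. That rate does not hold here, since in 3 of the 5 the other libraries were all at 0, where any count stands apart by construction. For Col4a4 these were library 6 of the pRPE ventral distal region, at 32.9 CPM with the others at 0, and library 89 of the OS ventral middle region, at 1.01 CPM with the others at 0. For Col9a3, library 9 of the OS ventral middle region held 194 CPM with the others at 0. Library 6 of the pRPE ventral distal region and library 32 of the pRPE dorsal proximal region held 0 CPM of Col9a3, with the others between 223 and 429 CPM. Library 6 was thus set apart for both genes of the epithelial pair, in opposite directions, and library 32 held the highest Col4a4 level, 127 CPM.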

How the results depend on the processing

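Col4a4 was higher dorsally under all alternatives, at a log2 fold change of 1.90 to 7.89 (adjusted p 4.39e-04 to 0.988), but was no longer called without a filter (5.82), with detected genes as a term (1.90), without the batch term (5.26), with the replicate block (5.79), within batch A (3.53) and within batch B (5.75). Leaving out single libraries gave 2.93 to 6.58. The call was lost without OS dorsal distal library 33 (adjusted p = 0.400), OS dorsal middle 84 (0.0856), OS ventral distal 68 (0.0561) and OS ventral proximal 40 (0.0504). DESeq2 also called Col4a4 between batches (-5.89) and between tissues (6.79), where the gene had met the filter through the pRPE. The cause of these changes was not tested.

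Signs turned for values that were not called. Between dorsal and ventral libraries Col1a2 was 0.38 without the batch term and 4.57 within batch B, against -3.91 within batch A. From distal to proximal it was 2.41 for Col1a2, 2.65 for Col3a1 and -3.30 for Col4a4 within batch B, 0.0149 for Col3a1 without the batch term and -0.46 for Col9a3 within batch A. As differences in the share of libraries with a count, in percentage points, Col3a1 between tissues was -7.14 with more than 10 counts required and -28.6 within batch A, Col1a2 between tissues was -9.52 within batch B, Col1a2 dorsally was 25.0 within batch B, Col1a2 distally was 6.99 with more than 10 counts, Col3a1 distally was -6.67, Col4a4 10 and Col9a3 -6.67 within batch A, and Col3a1 between batches was 7.14 with more than 10 counts.

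Without single libraries the log2 fold changes ran from -1.52 to 0.73 for Col1a2 dorsally, from -2.40 to 0.074 for Col1a2, -0.68 to 0.23 for Col3a1 and -2.38 to 2.06 for Col4a4 distally, and from -0.78 to 0.013 for Col9a3 between batches. The shares ran from -1.91 to 8.17 for Col3a1 between tissues, -8.57 to 1.92 for Col1a2 dorsally, -0.77 to 11.4 for Col9a3 distally, and -8.17 to 1.91 for Col3a1 and -6.73 to 2.38 for Col9a3 between batches.

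Counts of genes called moved most, over 8337 genes except without a filter (25243), with filterByExpr (6880), without mitochondrial genes (8300), within batch A (8039), within batch B (8297) and without single libraries (7904 to 8317). Between pRPE and OS (3) they were 1247 with DESeq2, 45 without a filter, 0 with TMMwsp, 60 with detected genes, 0 with the replicate block, 13 within batch A and 0 within batch B, and 0 to 3 without single libraries. Between dorsal and ventral (480) they were 1410 with DESeq2, 85 without a filter, 5 with detected genes, 835 without the batch term, 97 with the replicate block, 3 within batch A and 20 within batch B, and 142 to 652 without single libraries. From distal to proximal (0) they were 612 with DESeq2, 8 without a filter, 2 within batch A and 0 to 2 without single libraries. Between batches (10) they were 685 with DESeq2, 16 with filterByExpr, 16 without a filter, 2 without mitochondrial genes, 22 with detected genes and 5 to 11 without single libraries. The library numbers are not stated to mark embryos, and deviations from the group means correlated at 0.0160 on average in 103 pairs of libraries within a block and at -0.00550 in 299 pairs between blocks. The replicate block changed no other call of a member.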
